A study of Mus musculus with 6 samples.

Results

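Cerebellins, neuronal pentraxins and a delta glutamate receptor form a small set of synapse-organising genes, and 9 of them were followed here in the nuclear RNA of mouse neural precursor cells: the cerebellins Cbln1, Cbln2, Cbln3 and Cbln4, the neuronal pentraxins Nptx1 and Nptx2 with the pentraxin receptor Nptxr, the delta receptor Grid1 and the C1q-like gene C1ql1. They were picked by gene symbol from the 23337 gene rows of each count table, and all 9 had a row. The choice was made with the difference between genotypes in these same libraries already known, so that difference is described below and no p-value is given for it. Of the 9 genes, 7 had enough counts for a fit across all genes, while Cbln2 and Nptxr did not.

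The study compared cells labelled Fmr1 KO, in which the gene that encodes the RNA-binding protein FMRP is knocked out, with cells labelled Fmr1 WT. There were 3 KO lines (lines 3, 13 and 16) and 3 WT lines (lines 3, 8 and 19), described as independent. The precursors came from dorsal forebrain of E13.5 embryos and were grown at passage 6 to 7 in EGF and basic FGF at 20 ng/ml each, and the RNA came from nuclei separated from the cytoplasm. The sources used here do not give the knockout allele, the mouse strain or whether each line came from its own embryo. P-values therefore measure the spread between these lines only, and the spread between lines may hold differences of embryo, sex, strain or culture.

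Cerebellins are small secreted proteins of the C1q family. In cerebellum they link presynaptic neurexins to postsynaptic delta glutamate receptors, which hold synapses together and are not gated by glutamate in the usual way. Neuronal pentraxins are secreted or membrane-bound proteins that gather AMPA-type glutamate receptors at synapses, and C1q-like proteins bind the adhesion receptor BAI3. All of these are studied mostly in differentiated neurons.

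The coding sequences of the families are related but not alike, which bears on whether reads of one gene could be counted for another. For the cerebellins, the 90 coding bases of Cbln1 that Cbln3 and Cbln4 match best within a single exon are shown. Cbln2 was left out of this alignment. The stretch comes from the C-terminal end of the protein (GENCODE release M21, GRCm38: chr8:87470257-87470346 for Cbln1, chr14:55882983-55883072 for Cbln3 and chr2:172037373-172037462 for Cbln4, all in exon 3 and on the minus strand). Capitals mark the 41 positions at which the 3 genes are not all the same.
Cbln1: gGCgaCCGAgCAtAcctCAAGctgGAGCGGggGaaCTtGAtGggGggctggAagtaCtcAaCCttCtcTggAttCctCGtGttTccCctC
Cbln3: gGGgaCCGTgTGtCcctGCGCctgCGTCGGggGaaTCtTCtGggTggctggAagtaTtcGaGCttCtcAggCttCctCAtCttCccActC
Cbln4: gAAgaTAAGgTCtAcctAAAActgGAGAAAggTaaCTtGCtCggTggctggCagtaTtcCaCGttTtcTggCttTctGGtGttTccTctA
In this stretch Cbln1 and Cbln3 shared 71.1% of bases, Cbln1 and Cbln4 70.0%, and Cbln3 and Cbln4 60.0%.

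The same was done for the neuronal pentraxins, for exon 3 of each gene (chr11:119544592-119544681 on the minus strand for Nptx1, chr5:144553555-144553644 on the plus strand for Nptx2 and chr15:79792603-79792692 on the minus strand for Nptxr). Capitals mark 30 positions that differ among the 3 genes.
Nptx1: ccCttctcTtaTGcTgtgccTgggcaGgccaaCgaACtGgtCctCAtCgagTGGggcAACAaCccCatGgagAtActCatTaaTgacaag
Nptx2: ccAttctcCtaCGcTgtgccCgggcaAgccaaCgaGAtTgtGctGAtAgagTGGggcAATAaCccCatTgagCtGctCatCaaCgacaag
Nptxr: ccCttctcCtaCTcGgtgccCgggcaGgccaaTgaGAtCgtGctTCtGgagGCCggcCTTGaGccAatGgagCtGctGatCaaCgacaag
Nptx1 and Nptx2 shared 81.1% of these bases. Across the annotated transcripts of the 9 genes, 0 of 36 gene pairs shared an identical run of 50 bases on either strand. Exons of Nptxr overlap those of Npcd, on the same strand, by 890 of 5170 bases, and the row of Npcd held no counts in any library. How reads in that overlap were counted is not stated, so the empty row does not show that Nptxr kept all of its reads. Exons of Grid1 share 91 bases with a small RNA gene, Gm27617, that had no row, and exons of the other 7 genes overlap no other gene in that annotation.

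Total counts ran from 19520481 to 23324162 in the KO libraries and from 18702738 to 26789522 in the WT libraries, so that 1 count was worth 0.0366 to 0.0542 CPM, which are counts scaled to library size with TMM factors. Fmr1 itself went against the label in 1 library: it measured 371, 188 and 153 CPM in KO lines 3, 13 and 16, against 223, 270 and 273 CPM in WT lines 3, 8 and 19 (log2 fold change -0.10, SE 0.29, edgeR adjusted p = 0.795). Without the library labelled KO line 3 its log2 fold change was -0.58 (edgeR adjusted p = 0.00152). The library labelled KO line 3 also stood apart from the other KO libraries, with a chi-square over its degrees of freedom of 72.6 and 91.5 to them, against 16.4 between KO lines 13 and 16, and it was the only KO library high in Xist, the RNA of the inactive X chromosome (20497 CPM, against 3.34 and 1.67 CPM in KO lines 13 and 16; the WT lines had 15457, 18423 and 81.7 CPM). WT line 19 stood apart from the other WT libraries (61.3 and 62.8, against 10.8) and held 18728 CPM of the ribosomal RNA precursor Rn45s, against 1077 to 2567 CPM in the other 5 libraries. Each result below is therefore also given without those libraries where that changes it, and KO means the libraries labelled KO. With KO line 3 left out, all KO lines that remain are low in Xist. With WT line 19 left out too, all WT lines that remain are high in Xist. Genotype and Xist level cannot be told apart in that last setting.

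Markers of the labelled cell type were present in all libraries. All 12 listed markers of neural precursors had counts, with a summed level of 5701 to 6947 CPM in KO and 7570 to 8296 CPM in WT. At an edgeR adjusted p under 0.05, 1 was higher in KO (Nr2e1) and 3 were lower (Vim, Slc1a3 and Cdh2). The other 8 did not pass. Of all genes tested, 21.8% were higher and 20.4% lower at that threshold. The intermediate filament gene Nes was at 1785 to 2356 CPM in KO and 2198 to 2868 CPM in WT, and the transcription factor gene Sox2 at 98.0 to 146 CPM in KO and 102 to 112 CPM in WT. Neuron markers were mixed: Slc17a6 had no counts and Stmn2 stayed at or below 0.172 CPM, while Mtap2 was at 1048 to 1602 CPM in KO and 778 to 979 CPM in WT, Dcx at 6.73 to 18.3 CPM in KO and 0.271 to 0.987 CPM in WT, and Gad2 at 4.97 to 6.61 CPM in KO and 87.1 to 157 CPM in WT. Of the markers of cerebellar granule cells, the best known source of Cbln1 and Cbln3, Atoh1 and Gabra6 had no counts in any library. Zic1 was at 55.3 to 78.3 CPM in KO and 39.7 to 74.3 CPM in WT. Reln was lower in KO, at 18.6 to 35 CPM, against 76.2 to 84.4 CPM in WT. Zic2 was higher in KO, at 35.2 to 49.9 CPM, against 23.7 to 27.6 CPM in WT. Cadps2 was higher in KO too, at 2.24 to 3.63 CPM, against 0.354 to 0.695 CPM in WT.

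The secreted pentraxins differed between genotypes in opposite directions. Nptx1 (chromosome 11, 119538719 to 119547753) was the most abundant member in every library and was lower in the KO lines. It measured 160, 285 and 298 CPM in KO lines 3, 13 and 16, against 981, 812 and 912 CPM in WT lines 3, 8 and 19. The groups did not overlap, and the highest KO line was below the lowest WT line. The means were 248 ± 76.0 CPM in KO and 902 ± 85.1 CPM in WT (SD, n = 3 each), and the fitted log2 fold change was -1.86 (SE 0.22, 95% interval -2.36 to -1.36). In bulk RNA, fewer cells that express a gene and less of its RNA per cell cannot be told apart.

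Nptx2 (chromosome 5, 144545902 to 144557478) encodes a pentraxin that neurons induce as an immediate early gene. It measured 27.3, 35.0 and 36.4 CPM in KO lines 3, 13 and 16, against 2.08, 1.62 and 2.22 CPM in WT lines 3, 8 and 19. All KO lines lay far above all WT lines, and KO line 3 was the lowest of the KO lines. The fitted log2 fold change was 4.05 (SE 0.18, 95% interval 3.64 to 4.47), which placed Nptx2 at rank 18 from the highest among 13925 genes tested. In counts, 2189 reads over the KO libraries stood against 130 over the WT libraries, a ratio of 16.8 per unit of depth (exact 95% counting interval 14.1 to 20.2).

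Nptxr encodes the membrane-bound pentraxin that forms complexes with the secreted ones. Its counts were 0, 1 and 1 in KO lines 3, 13 and 16, against 3, 0 and 3 in WT lines 3, 8 and 19. No library was above 3 counts, taken as the floor per library (0.110 to 0.163 CPM), so no fold is given and a difference was not detectable at this depth. The nuclei of both genotypes thus held RNA of the secreted pentraxins with almost no counted RNA of their membrane-bound relative.

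**Figure D1:**
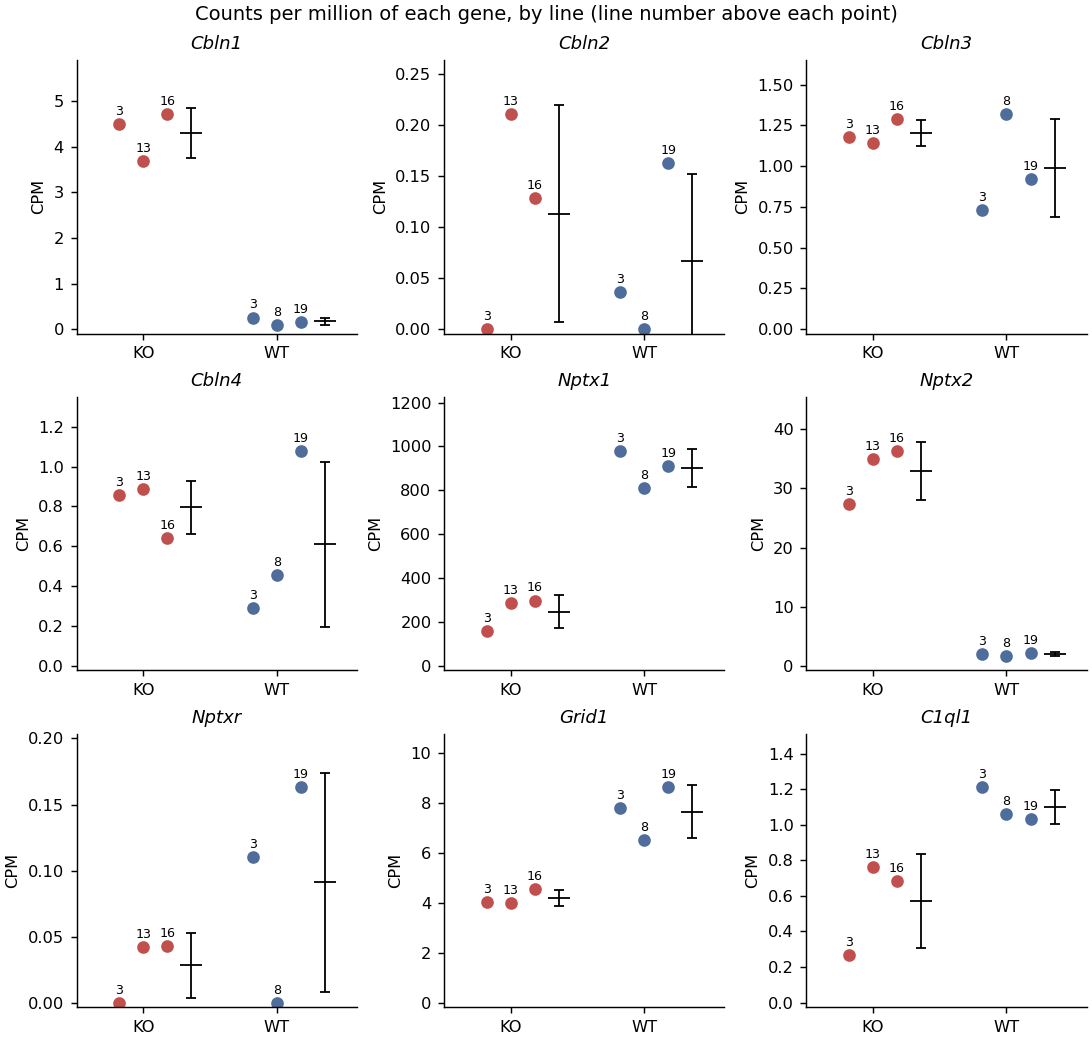
CPM of each of the 9 genes (vertical axis, linear, a scale of its own in each panel) in KO lines (red, left) and WT lines (blue, right), with the line number above each point and the mean ± SD in black (n = 3 each; the WT bar of Cbln2 runs off the axis below 0). Nptx2 and Cbln1 lie higher in all KO lines and Nptx1, Grid1 and C1ql1 lower, while Cbln2, Cbln3, Cbln4 and Nptxr overlap between the genotypes.

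Per kilobase of exon, the makeup of the pentraxins differed between the genotypes. Nptx2 made up 25.9%, 20.2% and 20.1% of the summed level of the 3 pentraxin genes in KO lines 3, 13 and 16, against 0.435%, 0.409% and 0.498% in WT lines 3, 8 and 19. Nptx1 was still the larger part in every line. The ratio of Nptx1 to Nptx2 per exon length was 2.85 to 3.98 in KO and 200 to 244 in WT. The summed level was nonetheless lower in KO, at 60.5 ± 16.5 CPM per kb, against 174 ± 16.4 CPM per kb in WT (SD, n = 3 each), since Nptx1 makes up most of it.

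Among the cerebellins the difference lay in Cbln1, the best studied member, which is released by cerebellar granule cells in the adult brain. Cbln1 (chromosome 8, 87468405 to 87472609) had 84, 87 and 110 counts in KO lines 3, 13 and 16, against 7, 2 and 3 counts in WT lines 3, 8 and 19. On the CPM scale this was 4.49, 3.68 and 4.72 in KO lines, against 0.256, 0.101 and 0.163 in WT lines. The groups lay far apart, and WT lines 8 and 19 were at or below the floor of 3 counts. The ratio of the summed counts per unit of depth was 23.4 (281 against 12 counts, exact 95% counting interval 13.2 to 45.8), and the fitted log2 fold change was 4.52 (SE 0.32, 95% interval 3.80 to 5.24), rank 8 from the highest.

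The other cerebellins were low in both genotypes. Cbln3, whose product in cerebellum is secreted only together with that of Cbln1, measured 1.18, 1.14 and 1.29 CPM in KO lines 3, 13 and 16, against 0.731, 1.32 and 0.921 CPM in WT lines 3, 8 and 19. WT line 8 was above all KO lines, so the groups overlapped, and the log2 fold change was 0.30 (95% interval -0.35 to 0.95). Cbln4, whose product also binds the netrin receptor DCC, measured 0.855, 0.888 and 0.643 CPM in KO lines 3, 13 and 16, against 0.292, 0.456 and 1.08 CPM in WT lines 3, 8 and 19. WT line 19 held more Cbln4 than any other library, and the log2 fold change was 0.44 (95% interval -0.60 to 1.49). Without WT line 19 it was 1.11 and without WT line 3 it was 0.05.

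Cbln2, which in forebrain also bridges neurexins and delta receptors, was near the limit of detection. It had 0, 5 and 3 counts in KO lines 3, 13 and 16, against 1, 0 and 3 counts in WT lines 3, 8 and 19. The ratio of 8 to 4 summed counts was 2 per unit of depth with an exact 95% counting interval of 0.535 to 9.06, so neither a higher nor a lower level could be seen at this depth. These intervals and floors reflect counting error alone.

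The makeup of the cerebellins per exon length followed from this. Cbln1 held 73.4%, 66.4% and 74.5% of the summed cerebellin level in KO lines 3, 13 and 16, against 24.2%, 7.23% and 7.96% in WT lines 3, 8 and 19. In the WT lines Cbln3 and Cbln4 held most of it, at 28.2% to 58.7% and 29.0% to 55.5%, and which of them was larger differed between lines. The summed level was 1.97 ± 0.134 CPM per kb in KO and 0.494 ± 0.165 CPM per kb in WT (SD, n = 3 each).

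**Figure D2:**
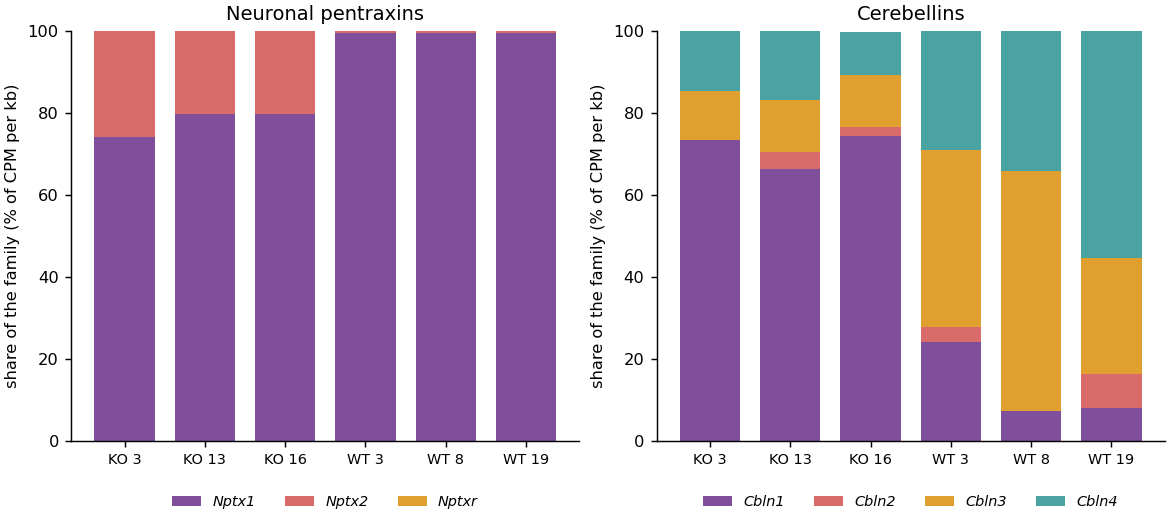
Share of each gene in the summed level of its family (% of CPM per kb of exon, stacked to 100) for the neuronal pentraxins (left panel) and the cerebellins (right panel) in the 3 KO libraries and then the 3 WT libraries. Nptx2 makes up 20.1% to 25.9% of the pentraxins in KO and under 0.5% in WT, and Cbln1 makes up 66.4% to 74.5% of the cerebellins in KO and 7.23% to 24.2% in WT.

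Grid1 encodes the delta receptor GluD1, the postsynaptic partner of cerebellins in forebrain (chromosome 14, 34820108 to 35583379). It measured 4.01, 3.97 and 4.55 CPM in KO lines 3, 13 and 16, against 7.79, 6.53 and 8.62 CPM in WT lines 3, 8 and 19. All KO lines were below all WT lines, opposite in direction to Cbln1. The log2 fold change was -0.87 (SE 0.17, 95% interval -1.25 to -0.49), or 275 against 501 counts.

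C1ql1, whose product in rodents guides climbing fibre synapses through BAI3, was lower in KO lines as well. It measured 0.267, 0.761 and 0.686 CPM in KO lines 3, 13 and 16, against 1.21, 1.06 and 1.03 CPM in WT lines 3, 8 and 19. The groups did not overlap, but KO line 3, with 5 counts, lay well below the other KO lines. The log2 fold change was -0.91 (SE 0.36, 95% interval -1.72 to -0.10) and fell short of the threshold set over all genes. With KO line 3 left out it was -0.61.

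The edgeR quasi-likelihood fit over all genes used Benjamini-Hochberg adjustment and a threshold of 0.05. Of the 7 tested members, 2 were called higher in KO (Cbln1 and Nptx2), beside 21.8% of all genes tested. Another 2 were called lower (Nptx1 and Grid1), beside 20.4% of all genes tested. In either direction 42.3% of all genes were called. The ranges of the genotypes stood apart in 5 of the 7 tested members, beside 54.3% of all genes tested. As the members were chosen on this contrast, and as Cbln1 and Cbln4 passed the filter on low counts only through the KO libraries and C1ql1 only through the WT libraries, these counts describe the set and support nothing. The 4 calls were also made in each of the 13 other settings tried.

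**Figure D3:**
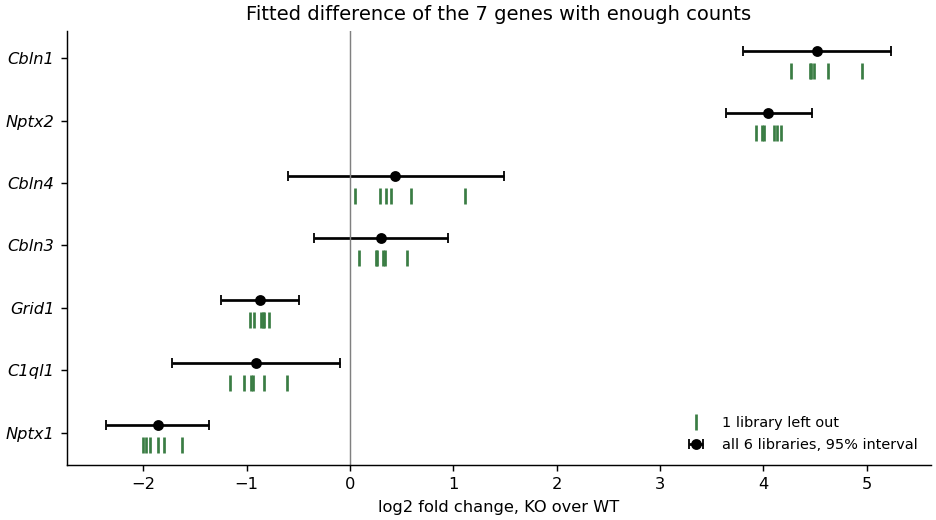
Log2 fold change (horizontal axis, KO over WT) of the 7 genes with enough counts, with the 95% interval of the fit (black) and the values with each of the 6 libraries left out in turn (green ticks). Cbln1 stays between 4.27 and 4.96 and Nptx1 between -2 and -1.63, while Cbln4 ranges from 0.05 to 1.11.

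Levels were compared between the genes only per kilobase of exon. This scale, and with it the order below, the percentiles and the family shares above, takes the counts as exonic, which the sources used here do not state; Grid1, for one, spans 763272 bases, of which 5962 are exonic. In KO the order was Nptx1 (47.5 ± 14.6 CPM per kb), Nptx2 (13 ± 1.94), Cbln1 (1.41 ± 0.18), Grid1 (0.7 ± 0.054), C1ql1 (0.388 ± 0.181), Cbln4 (0.274 ± 0.0457), Cbln3 (0.247 ± 0.0157), Cbln2 (0.0392 ± 0.0368) and Nptxr (0.00549 ± 0.00476; SD, n = 3 each). The ranges of C1ql1, Cbln4 and Cbln3 overlapped, and so did those of Cbln2 and Nptxr. In WT it was Nptx1 (173 ± 16.3 CPM per kb), Grid1 (1.28 ± 0.176), Nptx2 (0.779 ± 0.124), C1ql1 (0.747 ± 0.0637), Cbln4 (0.210 ± 0.144), Cbln3 (0.203 ± 0.0614), Cbln1 (0.0570 ± 0.0256), Cbln2 (0.0229 ± 0.0295) and Nptxr (0.0176 ± 0.0160; SD, n = 3 each). There the neighbours Nptx2 and C1ql1 overlapped in range, as did Cbln4 and Cbln3, Cbln1 and Cbln2, and Cbln2 and Nptxr.

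Set against 12583 tested genes with an exon length, Nptx1 was above 94.4% of them in KO and above 99.5% in WT. Nptx2 was above 67.6% of genes in KO and above 14.5% in WT. Cbln1 was above 21.5% of genes in KO and above 0.803% in WT, so that it remained a low-level gene in KO too. Grid1 was above 14.5% of genes in KO and above 19.8% in WT.

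**Figure D4:**
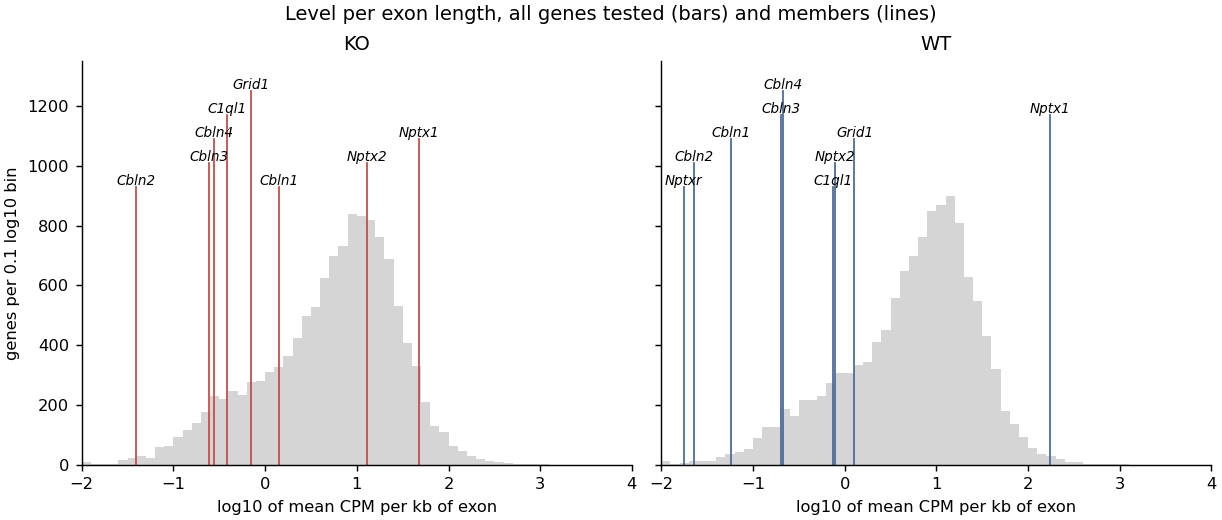
Number of tested genes (grey bars, per 0.1 step) by log10 of their mean CPM per kb of exon in KO (left) and WT (right), with each of the 9 genes as a line (the height of the lines carries no meaning, and Nptxr in KO lies off the axis at 0.00549 CPM per kb). Nptx1 lies at the upper end in both genotypes, Nptx2 lies near the centre in KO and on the lower flank in WT, and the other genes lie low in both.

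Differences between lines of 1 genotype were not used in choosing the genes. Nptx1 in KO line 3 was at 0.550 of its level in KO lines 13 and 16 together (exact 95% counting interval 0.529 to 0.572), and 1.67% of all genes tested were at least as far below. Nptx2 in KO line 3 was at 0.764 of its level in those lines (0.691 to 0.844), beside 11% of genes as far below. Both pentraxins were thus lower in KO line 3, so that for Nptx1 this line lay farther from WT, and for Nptx2 nearer to it. C1ql1 in KO line 3 was at 0.369 of the other KO lines (0.113 to 0.948, on 5 counts), beside 0.503% of genes. Cbln1, Cbln3, Cbln4 and Grid1 in KO line 3 were within counting error of the other KO lines, with ratios of 0.941 to 1.11. Among the WT lines, Cbln4 in WT line 19 was at 3 times its level in WT lines 3 and 8 together (1.49 to 6.10), beside 0.359% of genes at least as far above, while the other 6 genes were within counting error (ratios 0.851 to 1.19). These ratios set 1 library against others and have no replicate check.

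The spread between lines also differed among the genes. The biological coefficient of variation estimated by edgeR was 0.288 for Cbln4, above the 0.217 fitted for genes of its abundance, and 0.192 for Nptx1, above the 0.137 of its abundance. It was 0.139 for Grid1 and 0.167 for Cbln1, below the 0.176 and 0.207 of theirs. Nptx2, at 0.142, was close to its trend of 0.147.

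The genes whose pattern over the 6 libraries was most like that of a member were found by the root mean square difference of log2 CPM, each gene centred on its own mean. For Cbln1 they were Pdgfra, a receptor gene used as a marker of oligodendrocyte precursors (difference 0.25), Nptx2 (0.26) and Shisa7, a GABA-A receptor auxiliary subunit (0.35). For Nptx2 they were Cbln1 (0.26), Shisa7 (0.26) and the connexin gene Gjc1 (0.31). Pdgfra measured 40.6, 38.6 and 37.7 CPM in KO lines 3, 13 and 16, against 3.58, 1.11 and 2.22 CPM in WT lines 3, 8 and 19. Of 12519 genes compared, 0 came within 0.2 of either pattern. This measure includes the difference between genotypes on which the members were chosen. Cbln1 and Nptx2 ranked 8 and 18 from the highest in that difference, so few genes could lie close to them. Their likeness to each other is therefore not independent of the choice of members. For Nptx1 they were Slc35f3 (0.05), Nudt7 (0.09) and the chemokine gene Cx3cl1 (0.09), with 26 genes within 0.2. Cx3cl1 was at 25.7 CPM in KO and 92.1 CPM in WT, about the same fold as Nptx1 (log2 fold change -1.84).

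For Grid1 the most alike were Specc1 (0.05), the zinc transporter gene Slc39a6 (0.06) and the sialyltransferase gene St3gal5 (0.06), among 503 genes within 0.2. For C1ql1 they were Dand5 (0.09), Cend1 (0.14) and Cbs (0.18). For the genes with little difference between genotypes they were Fbxo47 (0.06), Rrm1 (0.10) and Thnsl2 (0.11) for Cbln3, and Ccdc110 (0.17), Alas2 (0.19) and Omg (0.20) for Cbln4. Without WT line 19 the log2 fold changes of Ccdc110, Alas2 and Omg were 0.94, 0.64 and 1.05, beside 1.11 for Cbln4. These genes were picked for likeness to Cbln4 over all libraries, WT line 19 among them. Their shift along with Cbln4 is therefore not independent of that choice.

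Binding partners and scaffolds of these proteins were listed apart from the members. The lists used below, like the members, were chosen with earlier results of these data known. Their shares of called genes therefore describe the lists and support nothing. Of 19 listed genes 17 were tested, 5 were called higher and 8 lower in KO, and 4 were not called, which is 76.5% beside 42.3% of all genes tested, with a median log2 fold change of -0.16 beside 0.01 for all genes. Without WT line 3 or without WT line 8 the number called higher was 3. Nrxn2, which encodes a neurexin, a presynaptic partner of cerebellins, rose to 59.5 ± 8.25 CPM in KO, against 35.4 ± 1.31 CPM in WT (log2 fold change 0.75, edgeR adjusted p = 0.00162; SD, n = 3 each). Nrxn3 was at 2.77 ± 0.257 CPM in KO and 2.57 ± 0.984 CPM in WT and was not called.

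Shank2, a postsynaptic scaffold that binds delta receptors, rose in KO (18 ± 1.24 CPM, against 7.28 ± 0.496 CPM in WT, log2 fold change 1.31, edgeR adjusted p = 0.000128). Bai3, the receptor of C1q-like proteins, was at 52.6 ± 3.84 CPM in KO and 54.5 ± 3.23 CPM in WT and was not called (log2 fold change -0.05, SE 0.11).

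The AMPA receptor subunits that pentraxins gather also split. Gria1 was at 10.3, 10.3 and 13.4 CPM in KO lines 3, 13 and 16, against 200, 227 and 279 CPM in WT lines 3, 8 and 19 (log2 fold change -4.38, edgeR adjusted p = 4.34e-06). Gria2 was at 1308, 831 and 636 CPM in KO lines 3, 13 and 16, against 201, 120 and 110 CPM in WT lines 3, 8 and 19 (2.68, edgeR adjusted p = 0.000261). Gria3 fell (log2 fold change -1.27, edgeR adjusted p = 0.00135), and Gria4 was not called, with 103, 31.1 and 28.3 CPM in KO lines 3, 13 and 16, against 29.5, 39.9 and 23.3 CPM in WT lines 3, 8 and 19.

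Relatives in the C1q/TNF and pentraxin families were mostly low or without counts. Of 29 listed genes 7 had no counts in any library, among them C1qa, C1qb and C1qc of complement, and 11 had enough counts to be tested. Of those, 5 fell in KO, 0 rose and 6 were not called (45.5% called beside 42.3% of all genes). By direction, 20.4% of all genes tested were called lower and 21.8% higher. The list had a median log2 fold change of -0.67 beside 0.01 for all genes. In edgeR 0 of the tested relatives were higher at an unadjusted p under 0.05 as well, and DESeq2 and limma-voom called 0 higher. Without KO line 13 the number called lower was 3, and without KO line 3 it was 6. C1qtnf6 was at 6.02 ± 0.961 CPM in KO and 20.0 ± 1.55 CPM in WT (log2 fold change -1.73, edgeR adjusted p = 7.66e-05), and C1qtnf9 and C1qtnf1 had log2 fold changes of -2.79 and -2.91. C1ql3, another C1q-like gene, was at 2.93 ± 0.199 CPM in KO and 4.64 ± 0.733 CPM in WT (log2 fold change -0.67, edgeR adjusted p = 0.0191), and the call was lost with KO line 13 left out (adjusted p = 0.0743) or with WT line 3 left out (adjusted p = 0.103). Ptx3, a pentraxin of innate immunity, was at 0.224 ± 0.141 CPM in KO and 0.689 ± 0.251 CPM in WT (log2 fold change -1.55, edgeR adjusted p = 0.0311). Ptx3 lost its call in the DESeq2 test (adjusted p = 0.0538), with KO line 13 left out (adjusted p = 0.113), with WT line 19 left out (adjusted p = 0.105), and also with WT line 19 and KO line 3 left out together (log2 fold change -1.09, adjusted p = 0.111).

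Of 43 other synaptic organisers 36 were tested, 14 rose in KO, 12 fell and 10 were not called (72.2% called, beside 42.3% of all genes tested, with a median log2 fold change of 0.08 beside 0.01 for all genes). Without WT line 3 the number called higher was 8, and without KO line 3 the number called lower was 15. Ptprd, a presynaptic receptor phosphatase, rose to 64.4 ± 17.2 CPM in KO, against 8.72 ± 0.923 CPM in WT (log2 fold change 2.88, edgeR adjusted p = 2.62e-05). Nlgn3, a postsynaptic partner of neurexins, rose too (log2 fold change 1.24), whereas its relative Nlgn1 fell (-1.67), as did Lrrtm3, another neurexin ligand (-2.27). Sparc, a secreted matrix protein, fell by 1.92 on the log2 scale. The thrombospondins, which astrocytes secrete, split: Thbs2 fell by 3.58 on the log2 scale, whereas Thbs1 and Thbs4 rose (log2 fold changes 2.34 and 1.19, edgeR adjusted p = 0.000429 and 0.0418) and Thbs3 was not called. Directions thus differed within the neuroligins, the thrombospondins and the AMPA receptor subunits, as they did between Nptx1 and Nptx2.

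**Figure D5:**
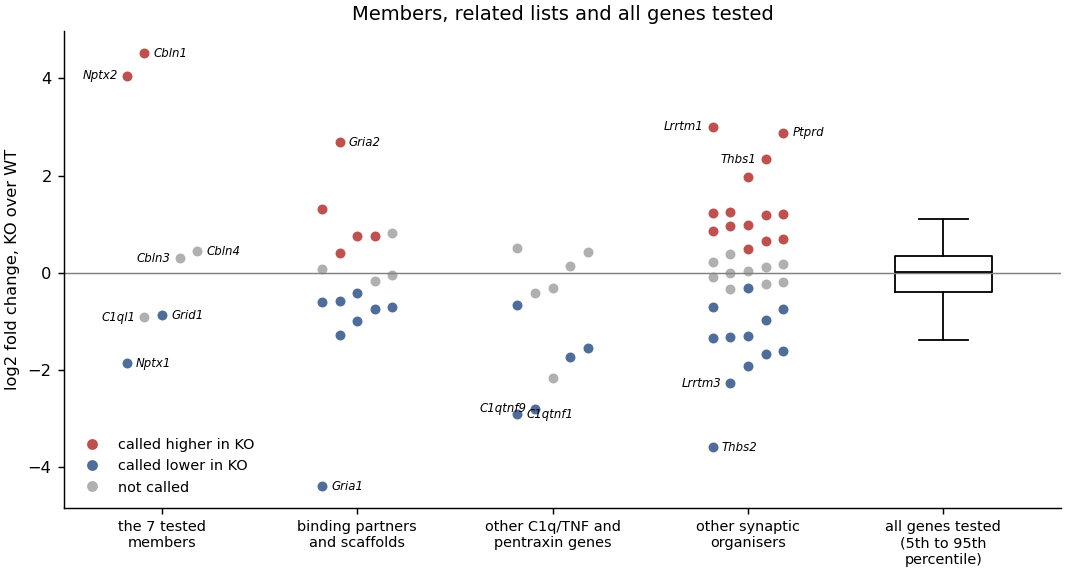
Log2 fold change (vertical axis, KO over WT) of the tested members, of the tested genes of 3 related lists (each point a gene, red called higher, blue called lower, grey not called) and of all 13925 genes tested (box: quartiles and median, whiskers from the 5th to the 95th percentile). Genes lie on both sides of 0 in the partner and organiser lists, while the called C1q/TNF and pentraxin relatives lie below 0.

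Markers of other cell types were counted beside the share of all genes tested that were called, which was 21.8% higher and 20.4% lower. Of 7 markers of oligodendrocyte precursors, all tested, 5 were called higher in KO and the other 2 were not called, and their summed level was 1128 to 1335 CPM in KO and 687 to 766 CPM in WT. Of 8 astrocyte markers, all tested, 4 were called lower in KO and the other 4 were not called, with a summed level of 232 to 316 CPM in KO and 375 to 648 CPM in WT. Of 13 neuron markers 10 were tested, of which 3 were called higher (Mtap2, Snap25 and Dcx) and 2 lower (Gad1 and Gad2), with a summed level of 1097 to 1670 CPM in KO and 969 to 1101 CPM in WT that was mostly Mtap2. Of 9 markers of the cerebellar granule lineage 5 were tested, of which 2 were called higher (Zic2 and Cadps2) and 1 lower (Reln). The 9 together summed to 195 to 266 CPM in KO and 202 to 243 CPM in WT. Of 13 markers of the cortical hem, Lmx1a and Wnt3a had no counts and 3 were tested, with log2 fold changes of -0.08 to 0.26 and a summed level of 35.9 to 51.7 CPM in KO and 32.9 to 46.9 CPM in WT. Another 12 microglial, endothelial and mesenchymal markers, of which 4 were tested and 2 were called higher, summed to 5.16 to 18.2 CPM in KO and 5.81 to 9.05 CPM in WT. The part of these cell types in the differences of the cerebellin and pentraxin genes was not tested.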

How the data were processed

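The deposited files hold raw read counts by gene symbol, in 1 table for each of the 6 libraries, and the authors applied no normalization to them as far as their whole-number values show. Cutadapt 1.14, HTSeq 0.7.2, STAR and DESeq2 are named, with the mm10 build, per the submitters' processing notes. The sources used here do not give what each tool did, the annotation or the strand setting, so overlapping genes on opposite strands cannot be told apart. Intronic reads, which nuclear RNA is rich in, may or may not have been counted.

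The test was edgeR 4.0.16, run in R 4.3.3 (filterByExpr, TMM scaling, robust quasi-likelihood fit of genotype over 6 libraries with 4 residual degrees of freedom, two-sided, Benjamini-Hochberg over 13925 genes, threshold 0.05). Each SE was computed as the log2 fold change over the root of F. Total counts ran from 18702738 to 26789522. Exon lengths, positions and coding sequences came from GENCODE M21 (GRCm38), with exons of all transcripts of a gene merged. Older symbols were matched through RefSeq synonyms (Bai3 for Adgrb3, Lphn1 to Lphn3, Mtap2, Fam132a). Log2 CPM for likeness of pattern carried a prior count of 2.

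The members and the gene lists were chosen with earlier results of these data known. All 9 members were named, up to 6 called genes of each of 3 lists by smallest p, and the 3 genes most like each tested member. Beside these, Nrxn3, Bai3, Gria4, Thbs1, Thbs3 and Thbs4 were named after their values were seen, and some genes of the partner list are not reported here by name. The fit was tested on simulated data. Alternatives were other size factors (DESeq2 1.42.0, library size alone), no filter or a filter of 1 CPM in 3 libraries, the DESeq2 Wald test, limma-voom (limma 3.58.1), each library left out in turn, and WT line 19 and KO line 3 left out together.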

Additional observations from a re-analysis of the deposited data

How the results depend on the processing

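The log2 fold changes of Cbln1, Nptx2, Nptx1 and Grid1 kept their direction and their call in all 13 other settings, with ranges of 4.27 to 4.96, 3.93 to 4.25, -2 to -1.62 and -0.97 to -0.75. Those of Cbln3 (0.09 to 0.55), Cbln4 (0.05 to 1.11) and C1ql1 (-1.16 to -0.61) kept their direction and were called in no setting; Cbln4 did not pass the filter of 1 CPM in 3 libraries and has no value there. The 2 members called higher and the 2 called lower were 2 and 2 in each setting. With 1 library left out, the number of all genes called higher ranged from 1994 to 3666, against 3040 with all libraries, that of partners called higher from 3 to 5, that of C1q/TNF and pentraxin relatives called lower from 3 to 6, and that of synaptic organisers called higher from 8 to 14. Fmr1 ranged from -0.58 without KO line 3 (past the threshold) to 0.04 without KO line 13 and 0.14 without KO line 16, and Alas2 from -0.05 without WT line 3 to 0.64 without WT line 19. The cause was not tested. Among the other named genes, 445 comparisons kept direction and call, 13 lost the call, 5 gained it and 3 changed sign. Scalings moved the median of all genes by less than 0.1 on the log2 scale. No paired analysis was possible because the genotypes share only 1 line number, line 3. Low counts limit Cbln2 and Nptxr, whose counts were mostly at or below 3, and the WT level of Cbln1, which rests on 12 counts. Why Nptxr held so few counts was not tested.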
